A study of Mus musculus with 96 samples.

Results

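Transporting epithelia of the outer medulla were compared: PTS3, the last straight part of the proximal tubule, and MTAL, the medullary thick ascending limb. The comparison used 12 of the 93 sequenced pieces in the table, 6 of PTS3 and 6 of MTAL, chosen by the segment and mouse number in their names. Each group held 3 mice with 2 pieces per mouse, and the mouse was the replicate. Both groups were male C57BL/6 mice of 6 to 8 weeks on a normal diet with free access to water, and the labels name no transgene, deletion or agent. The tubules were dissected under the microscope, poly(A) RNA was copied from a very small input, and levels were given as TPM (a share of all transcripts, corrected for transcript length and scaled to the same total in each library). The table covered 15 groups (14 tubule segments and the glomerulus) and 53 combinations of segment and mouse number, and the labels do not say whether equal numbers in different segments are the same animal. They also do not give the depth of the libraries, and the TPM values keep none.

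PTS3 lies in the outer stripe of the outer medulla, at the end of a tubule that takes back most filtered solutes through a brush border facing the lumen. Its cells secrete organic anions and cations into urine, make glucose, detoxify drugs, burn fatty acids and use oxidative metabolism because they have little capacity for glycolysis. The thick limb next to it takes up sodium, potassium and chloride from the lumen through the cotransporter NKCC2, recycles potassium through ROMK and passes chloride to the blood side through channels that need the barttin subunit. The sodium pump on the blood side drives both epithelia, the thick limb is nearly impermeable to water, and both lie where oxygen is scarce.

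The labels held in every mouse. Kap, kidney androgen-regulated protein and a marker of the straight proximal tubule, was at 63323, 83372 and 79431 TPM in the 3 PTS3 mice and at 0.635, 9.42 and 0.62 TPM in the 3 MTAL mice. Umod, uromodulin, the main protein of normal urine made by the thick limb, was at 0, 1 and 0.76 TPM in PTS3 and at 21184, 24614 and 17908 TPM in MTAL. The groups did not overlap for either gene, and the difference was 14.91 (SE 1.02, adjusted p = 1.0e-16 by limma) for Kap and -13.86 (SE 0.43, adjusted p = 7.1e-29) for Umod. Here and below, a difference is PTS3 minus MTAL in log2(TPM + 1), a scale that understates changes of genes near 0, and adjusted p-values are limma's with Benjamini-Hochberg correction over all genes tested. All 21 listed markers of the straight proximal tubule were higher in PTS3, and 11 of 14 listed secreted and marker proteins of the thick limb were higher in MTAL. Summed over the list, the proximal markers reached 44.7 to 123 TPM in MTAL mice against 85656 to 100851 TPM in PTS3 mice. MTAL mouse 2 held the highest MTAL value of Kap and also of Gpx3 (3.91, 27.04 and 0.465 TPM in mice 1, 2 and 3).

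Among markers of other kidney cells, leukocyte genes were called toward MTAL. The defining genes Aqp2, Aqp3, Scnn1b, Scnn1g (collecting duct), Foxi1, Slc4a1 (intercalated cells) and Nphs1 (podocytes) were all at or below 1.27 TPM in all 6 mice. Of the 10 leukocyte genes, 7 were higher in MTAL and 1, Csf1r, was higher in PTS3, against 33.6% and 12.6% of expressed genes. After median ratio rescaling (below) 7 were higher in MTAL and 1 in PTS3, and after quantile normalization 5 and 1. Their summed level was 97.4 to 149.9 TPM in PTS3 mice and 450.2 to 855 TPM in MTAL mice, with Ptprc listed at 0 in PTS3 and at 2.46, 1.2 and 1.95 TPM in MTAL (its call was lost without MTAL mouse 1). The 10 endothelial genes summed to 88.5 to 174 TPM and 217 to 438 TPM. Of them 3, about the share of expressed genes given below, passed toward MTAL, with 1 after median ratio rescaling and 0 after quantile normalization. Of 10 thin limb markers, 5 were higher in MTAL and 0 in PTS3. Of 6 distal convoluted tubule markers, 2 were higher in PTS3 and 1, the kallikrein Klk1, in MTAL. Their sum was 7.27 to 13.5 TPM in PTS3 and 811 to 1431 TPM in MTAL, of which Klk1 made 919.9, 1431 and 811 TPM in mice 1, 2 and 3. The other lists had lower sums. They were at most 171 TPM for 9 collecting duct genes (1 higher in each segment) and 27.6 TPM for 7 intercalated cell genes (1 higher in MTAL). They were at most 39.1 TPM for 9 stromal genes (2 higher in MTAL), 7.13 TPM for 6 glomerular genes (1 higher in MTAL) and 0.325 TPM for 5 erythroid genes (0 called). Whether these cells contributed to any of the differences below was not tested. In bulk tissue, fewer cells of a type and less RNA per cell cannot be told apart.

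Of 33793 genes tested, 6285 (18.6%) differed between PTS3 and MTAL at adjusted p under 0.05 and a difference of at least 1, with 1736 (5.14%) higher in PTS3 and 4549 (13.5%) higher in MTAL. Among the 13228 genes at 1 TPM or more in at least 3 of these 6 mice, 46.2% were called, 12.6% higher in PTS3 and 33.6% higher in MTAL. The median difference of these 13228 genes was -0.62, so a typical gene was lower in PTS3 on the TPM scale. The 10 most abundant genes took 20.4 to 25.6% of all TPM in PTS3 mice and 14.0 to 17.5% in MTAL mice, and libraries held 11291 to 11788 genes at 1 TPM or more in PTS3 and 12567 to 12970 in MTAL. Rescaling every mouse by the median ratio over 11566 genes brought that median to -0.10 and quantile normalization to -0.15. The share of calls that were higher in PTS3 was 27.6% on TPM, 47.7% after the median ratio (18.7% of expressed genes higher in PTS3 and 21.2% higher in MTAL) and 46.6% after quantile normalization. Below, counts given after rescaling are those after the median ratio, PTS3 first and MTAL second, and are read against these 18.7% and 21.2%, as counts on TPM are against 12.6% and 33.6%. These shares cover expressed genes only, whereas counts of a list cover all its tested members, some of them not expressed. No named gene past the threshold changed sign under either rescaling.

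**Figure D1:**
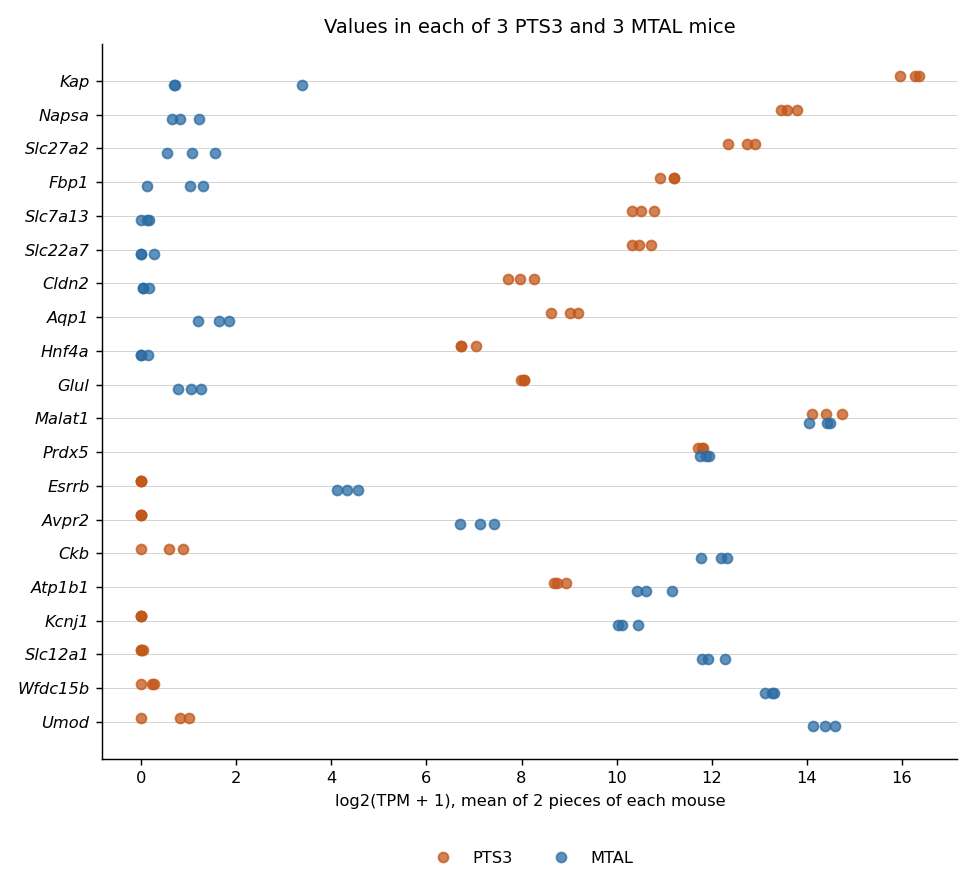
Level of 20 genes of the text in each of the 3 PTS3 and 3 MTAL mice, as log2(TPM + 1) on the x axis, with 1 point per mouse. The segments do not overlap for any gene but Malat1 and Prdx5, which are close in both, and PTS3 points of Esrrb, Avpr2 and Kcnj1 lie at 0.

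The 12 largest differences toward PTS3 included fuel and fatty acid enzymes: the fatty acid transport and activating protein Slc27a2 (7646, 5219 and 6855 TPM in PTS3 against 1.1, 1.95 and 0.455 TPM in MTAL), fructose-1,6-bisphosphatase (Fbp1, 2369.9, 1926 and 2350.4 TPM) and the medium-chain acyl-CoA synthetases Acsm2 (3800.3, 2959 and 3169.7 TPM) and Acsm3 (2747, 1972 and 2256 TPM). These 4 genes were at no more than 3.005 TPM in any MTAL mouse. The aspartic protease napsin A (Napsa) was the second largest, at 14108, 11255 and 12323 TPM against 0.565, 1.31 and 0.755 TPM (difference 12.73, SE 0.48). Keg1, of the glycine N-acyltransferase family (3092, 3310.1 and 3529.8 TPM), the transporters Slc7a13 and Slc22a7, uroguanylin (Guca2b, a natriuretic peptide, 2584, 3471 and 3046 TPM) and the trypsin inhibitor Spink1 (2135, 2838 and 3269 TPM) completed the group with Kap. All of the last 5 of these genes stayed under 2 TPM in every MTAL mouse. Acsm and Slc22 genes have close relatives, and how the authors' counting split reads among such copies is uncertain.

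The 12 largest differences toward MTAL were led by Umod and by Wfdc15b, a whey acidic protein family member at 0, 0.165 and 0.215 TPM in PTS3 and 9866, 8935 and 10141 TPM in MTAL. Epidermal growth factor (Egf) was at 3858, 3028 and 1842 TPM in MTAL and under 1 TPM in each PTS3 mouse (difference -10.91, SE 0.40). The brain-type creatine kinase Ckb was at 0, 0.84 and 0.495 TPM in PTS3 and 3501, 5102 and 4684 TPM in MTAL (difference -11.69, SE 0.40, adjusted p = 4.4e-27). The phosphatase inhibitor Ppp1r1a was at 2463, 2573 and 2809 TPM and metallothionein 1 (Mt1, a metal-binding protein) at 1.02, 0.7 and 0 TPM in PTS3 and 3827, 1900 and 2539 TPM in MTAL. Gpx6, of the glutathione peroxidase family (1398, 1402 and 1335 TPM), and Nccrp1, of the F-box family (643, 887 and 879 TPM), were listed at 0 in every PTS3 library. Slc12a1, Kcnj1 and Ptger3, described next, were also among them.

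Thick limb salt entry and its regulators stood almost wholly on the MTAL side: 15 of 19 genes were higher in MTAL, 0 were higher in PTS3, and 4 did not pass, against 33.6% and 12.6% of expressed genes (1 and 14 after rescaling). Slc12a1, which encodes NKCC2, was at 0, 0 and 0.025 TPM in the PTS3 mice and 3852, 4972 and 3525 TPM in the MTAL mice (difference -11.98, SE 0.70, adjusted p = 4.3e-19). Kcnj1 (ROMK) and Bsnd (barttin) were listed at 0 in all 6 PTS3 libraries and stood at 1040.5, 1404 and 1098 TPM and 271, 350.3 and 306 TPM in MTAL (adjusted p = 1.4e-30 and 1.4e-30). No PTS3 mouse reached the MTAL range of any of these 3 genes. Kcnj16, a potassium channel subunit of the blood side, was expressed in both segments and only moderately higher in MTAL (44.2, 41.5 and 39.3 against 138, 215 and 139.9 TPM, difference -1.93, SE 0.22), whereas its partner Kcnj10 was listed at 0 in PTS3 and at 8.24, 10.5 and 10.7 TPM in MTAL.

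Stk39 (SPAK), the kinase that phosphorylates NKCC2, was at 6.09, 3.5 and 4.15 TPM in PTS3 and 80.01, 122 and 89.7 TPM in MTAL, and its upstream kinase Wnk4 was at 21.8, 19.3 and 8.41 and 342, 348 and 390.3 TPM. Wnk1 (difference -0.20, SE 0.24, adjusted p = 0.96) and Oxsr1 (-0.94, SE 0.21) did not pass the threshold; Oxsr1 passed without MTAL mouse 3 (-1.04) or PTS3 mouse 1 (-1.05). The calcium-sensing receptor Casr (43.4, 46.9 and 30.6 TPM in MTAL) and the prostaglandin E2 receptor Ptger3 (567, 859 and 763 TPM), both brakes on salt transport in this segment, were at or under 0.005 TPM in each PTS3 mouse. The apical sodium-proton exchanger Slc9a3 (NHE3), best known from the proximal tubule, was at 0, 0.045 and 0 TPM in PTS3 and 116, 172 and 102 TPM in MTAL (difference -6.97, SE 0.33, adjusted p = 3.6e-22). Slc9a8, another exchanger of the family, ran the other way, at 591, 439 and 569 TPM in PTS3 and 21.7, 18.1 and 19.4 TPM in MTAL (difference 4.67, SE 0.33).

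Sodium pump genes that passed were all higher in MTAL, 7 of the 14 pump and FXYD genes tested. The beta subunit Atp1b1 was at 489, 407 and 425 against 1577, 2296 and 1373 TPM (difference -1.96, SE 0.16, adjusted p = 1.6e-14), and the gamma regulator Fxyd2 was abundant in both, at 4304, 4708 and 4630.2 against 22331, 21254 and 29330 TPM (difference -2.40, SE 0.20). After median ratio rescaling the differences were -1.33 and -1.77, both still past the threshold.

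**Figure D2:**
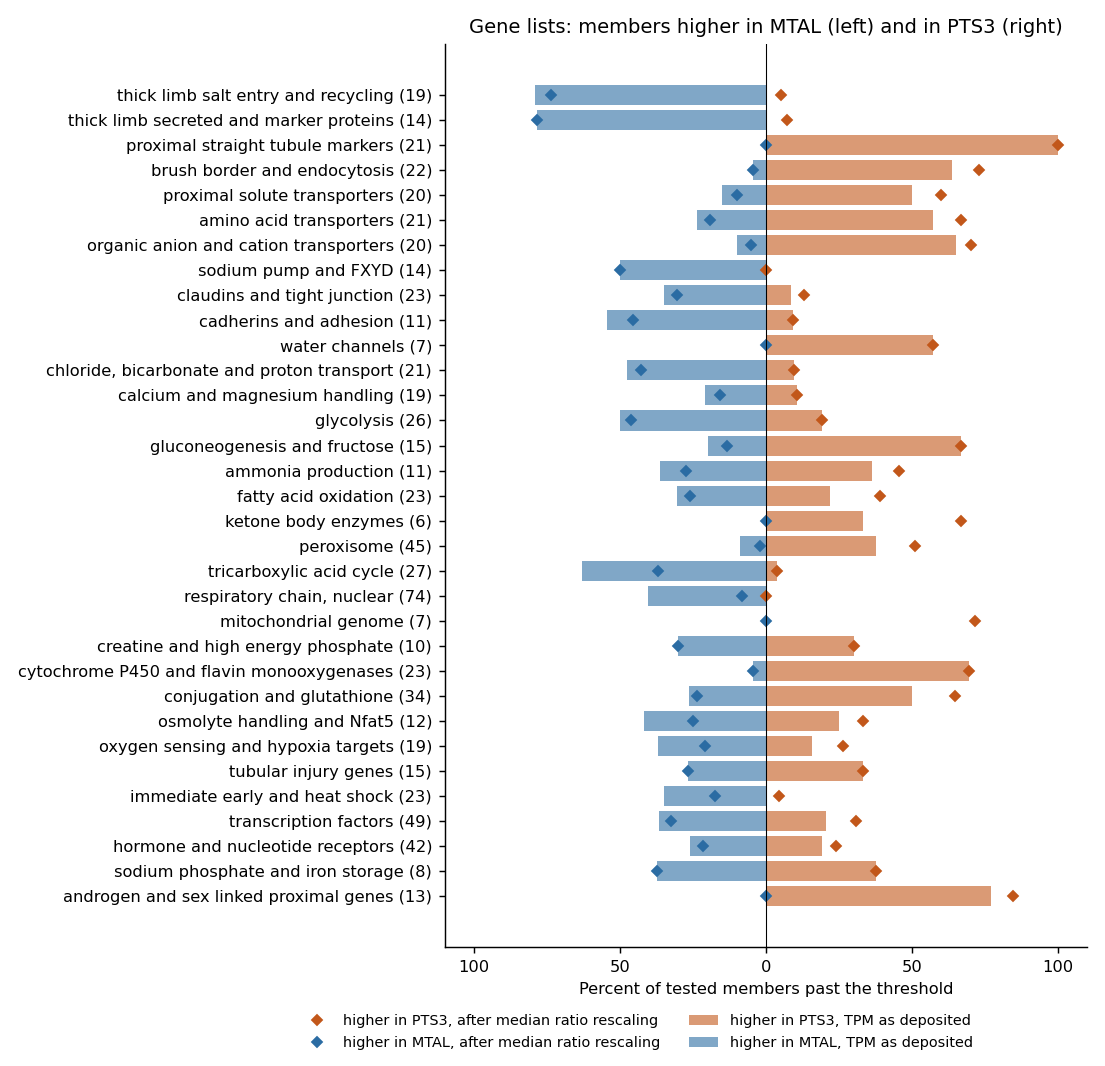
Share of the tested members of each gene list that passed the threshold, in percent, higher in MTAL to the left of 0 and higher in PTS3 to the right, with the number tested in brackets. Bars use TPM as deposited and diamonds the values after median ratio rescaling. For the nuclear respiratory chain, 30 of 74 members were higher in MTAL on TPM and 6 after rescaling.

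Junction proteins set what can pass between the cells. Cldn2, which forms the cation and water pore of the leaky proximal tubule, was at 304, 209.7 and 249 TPM in PTS3 and 0.12, 0.030 and 0.035 TPM in MTAL (difference 7.88, SE 0.37). Cldn19 (247, 329 and 377 TPM in MTAL) and Cldn16 (41.2, 98.005 and 20.95 TPM), which with Cldn10 shape cation passage in the thick limb, were under 2 TPM in every PTS3 mouse. MTAL also held Cldn8 (201, 205 and 226 TPM) and Cldn7 (107, 177 and 113 TPM), against at most 1.15 and 3.98 TPM in PTS3. Cldn10 was present in both, at 259.6, 230.3 and 266 and 1150.5, 1241 and 1377 TPM (difference -2.31, SE 0.36); gene totals do not separate its isoforms. Of 23 tested claudin and tight junction genes, 2 were higher in PTS3 (Cldn1 and Cldn2) and 8 in MTAL, occludin (Ocln) among them at 16.7, 4.68 and 13.3 against 112, 112 and 79.6 TPM. Of expressed genes 33.6% were higher in MTAL and 12.6% in PTS3, and of all genes tested 13.5% and 5.14%. Only 16 of the 23 were expressed genes, with a median of -1.2 against -0.62 for all expressed genes. After rescaling, 3 and 7 passed. Of 11 adhesion genes, 6 were higher in MTAL and 1 in PTS3 (1 and 5 after rescaling). Epcam was at 30.2, 24.97 and 36.98 against 855, 719.9 and 752 TPM and E-cadherin (Cdh1) at 13.8, 8.91 and 13.7 against 188, 197 and 154 TPM. Kidney-specific cadherin (Cdh16) was high in both and higher in MTAL (297, 212 and 288 against 1799, 2121 and 1614 TPM). N-cadherin (Cdh2) was the exception, at 4.17, 3.29 and 4.04 TPM in PTS3 and no more than 0.005 TPM in any MTAL mouse.

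Genes of uptake from the lumen were mostly higher in PTS3. Of 22 tested brush border and endocytosis genes, 14 were higher in PTS3 and 1 (Enpep) in MTAL (16 and 1 after rescaling). The Enpep call was lost after quantile normalization (-0.83) and with a pseudocount of 5 (-0.53). The endocytic receptors megalin (Lrp2, 32.3, 32.3 and 38.1 against 0.010, 0.010 and 0.010 TPM) and cubilin (Cubn, 21.1, 16.8 and 18.4 against 0.005, 0 and 0.010 TPM) and their partner amnionless (Amn, 166, 130.3 and 157 against 0.76, 0.315 and 0.195 TPM) did not overlap between segments. The scaffold Pdzk1, which anchors transporters under the brush border, was at 1631, 1322 and 1414 against 0, 0.495 and 0.235 TPM (difference 10.24, SE 0.55). The microvillus protein villin (Vil1) was at 75.8, 81.5 and 75.2 TPM in PTS3 and at most 0.12 TPM in MTAL. The 7 members that did not pass on TPM ranged from -0.63 to 0.655, among them neprilysin (Mme, difference -0.28, SE 0.36), legumain (Lgmn, 0.33, SE 0.22) and the protocadherin Cdhr5 (0.49, SE 0.36). Cdhr5 did not overlap between segments and passed after rescaling (1.12). Aqp1, the constitutive water channel, was at 582, 389.8 and 514 TPM in PTS3 and 1.3, 2.12 and 2.62 TPM in MTAL. The other PTS3 water channels were Aqp11 (88.5, 78.1 and 74.01 TPM), Aqp7 (72.1, 59.97 and 61.98 TPM) and Aqp4 (36.7, 25.8 and 17.5 TPM), so 4 of 7 water channels passed and 3 (Aqp2, Aqp3 and Aqp6) were near 0 in both.

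Among 20 proximal solute carriers, 10 were higher in PTS3 and 3 in MTAL (12 and 2 after rescaling). The fructose carrier Slc2a5 (123, 77.9 and 96.7 TPM in PTS3) and the mannose and fructose cotransporter Slc5a10 (111, 97.9 and 166 TPM) were at most 0.28 TPM in MTAL, and the urate and phosphate carriers Slc17a3 (1008, 665 and 778 TPM) and Slc17a1 (835, 598 and 829.5 TPM) at most 0.39 TPM. The dicarboxylate carrier Slc13a2 was at 93.6, 83.8 and 91.8 TPM and listed at 0 in every MTAL library. Slc34a1, the main renal phosphate carrier, was modest in PTS3 (54.3, 41.6 and 36.7 against 0, 1.9 and 0 TPM). The glucose cotransporter Slc5a1 (SGLT1) was present in both and higher in MTAL on TPM, at 47.05, 29.3 and 39.2 against 108, 161 and 76.4 TPM (difference -1.52, SE 0.34); the call was lost after median ratio rescaling (-0.90). Slc5a2 (SGLT2), of the early proximal tubule, was listed at 0 in PTS3 and at most 0.33 TPM in MTAL.

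Of 21 amino acid carriers, 12 were higher in PTS3 and 5 in MTAL (14 and 4 after rescaling). Slc7a13, the cystine and aspartate carrier of the straight tubule, was at 1763, 1277 and 1466 TPM in PTS3 and 0.125, 0.095 and 0 TPM in MTAL. The glycine carrier Slc6a18 (903, 618 and 783 TPM) and the cystinuria gene Slc3a1 (804, 531 and 702 TPM) were at most 0.325 TPM in MTAL. Toward MTAL lay the neutral amino acid carrier Slc43a2 (0.98, 0.41 and 0.27 against 125, 100.3 and 93.9 TPM, difference -6.17, SE 0.32), Slc7a8 (1.28, 0.42 and 0.795 against 16.8, 19.4 and 12.1 TPM) and Slc3a2, the heavy chain shared by several carriers (29.97, 19.005 and 16.3 against 116, 130.2 and 102 TPM). Organic ion carriers, which secrete drugs and metabolites, were higher in PTS3 in 13 of 20 tested and in MTAL in 2 (14 and 1 after rescaling). The organic cation carrier Slc22a2 (403, 326 and 394 TPM) and the exit carrier Slc47a1 (469.8, 349 and 406 TPM) were at most 0.49 TPM in MTAL. The urate exchanger Slc22a12 was at 732, 673 and 686 TPM and the anion carrier Slc22a7 at 1687, 1282 and 1409.9 TPM. The classic anion exchanger Slc22a6 was low in PTS3, at 1.26, 1.91 and 1.18 TPM (difference 1.15, adjusted p = 0.051, not past the threshold as fitted; 1.63 and past it after rescaling, and past it under several other settings), and Slc22a8 was at most 0.13 TPM in any of the 6 mice. The multidrug protein Abcc4 was the clearest MTAL member (0.56, 0.17 and 0 against 15.02, 16.4 and 14.6 TPM).

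Of 21 acid-base genes, 10 were higher in MTAL and 2 (Slc4a4 and Slc9a8) in PTS3 (2 and 9 after rescaling). The cytosolic carbonic anhydrase Car2 was at 3.91, 4.995 and 4.12 against 588, 779 and 636 TPM (difference -6.99, SE 0.18, adjusted p = 2.9e-31) and the membrane-bound Car4 at 0.485, 0 and 0 against 351, 462 and 384 TPM. The bicarbonate exit carrier Slc4a4 (NBCe1) of the proximal tubule was at 10.2, 7.49 and 9.94 against 1.97, 1.895 and 1.005 TPM, and the anion exchanger Slc4a2 at 14.2, 9.24 and 8.73 against 66.1, 102 and 72.9 TPM. Atp6v1b1, a proton pump subunit used as an intercalated cell marker, was listed at 0 in PTS3 and at 27.5, 27.4 and 8.14 TPM in MTAL, while the intercalated markers Foxi1, Slc4a1, Slc26a4, Rhcg, Atp6v0d2 and Aqp6 were at or under 0.405 TPM. Of 19 calcium and magnesium genes, 2 were higher in PTS3, the parathyroid hormone receptor Pth1r (614, 471 and 546 against 4.15, 9.44 and 2.06 TPM) and the vitamin D receptor Vdr (79.4, 65.5 and 70.7 against 19.7, 12.4 and 8.05 TPM), and 4 in MTAL (2 and 3 after rescaling).

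Carbon metabolism changed enzyme forms between the segments. Of 26 glycolysis genes, 13 were higher in MTAL and 5 in PTS3 (5 and 12 after rescaling). Hexokinase 1 (Hk1), which commits glucose to glycolysis, was at 5.195, 3.56 and 4.71 TPM in PTS3 and 376, 481 and 317 TPM in MTAL (difference -6.20, SE 0.25, adjusted p = 1.4e-24). The phosphofructokinases Pfkl (15.1, 17.8 and 23.1 against 205, 247 and 217 TPM) and Pfkp (39.5, 30.96 and 28.9 against 284, 366 and 284 TPM) did not overlap between segments. Pyruvate kinase Pkm was at 61.2, 39.5 and 49.4 against 976, 1259 and 1224 TPM, and the liver form Pklr was at 5.9, 5.78 and 5.45 TPM in PTS3 and listed at 0 in MTAL. Gapdh was close, at 838, 736 and 848 against 794, 927 and 908 TPM (difference -0.12, SE 0.12), as was Tpi1 (-0.47, SE 0.19). The aldolases Aldoa (666, 591 and 689.98 against 3346, 3712 and 3354 TPM) and Aldoc (1.97, 1.19 and 1.69 against 339.9, 361 and 357 TPM) were higher in MTAL. Lactate dehydrogenase also switched form: Ldha was at 1761, 1446 and 1753 TPM in PTS3 and 511, 615 and 747 TPM in MTAL (difference 1.41, SE 0.15), and Ldhb at 358, 336 and 356 and 6298, 6424 and 5859 TPM (difference -4.15, SE 0.18). The D-lactate enzyme Ldhd was at 1134, 1029 and 1075 against 44.7, 37.4 and 39.1 TPM.

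Ratios within a mouse, which do not depend on how libraries are scaled apart from the added 1 TPM, put the switches side by side. The log2 ratio of Ldha to Ldhb was 2.10 to 2.30 in PTS3 mice and -3.62 to -2.97 in MTAL mice, and that of the glucose carriers Slc2a2 to Slc2a1 was 0.18 to 0.55 and -7.41 to -6.71. The liver-type and muscle-type phosphofructokinases Pfkl and Pfkm kept a similar ratio, at 1.63 to 2.40 in PTS3 and 1.88 to 2.09 in MTAL, so their ranges overlapped. Of the 10 pairs computed, this was the 1 pair whose ranges overlapped. Glucose production and fructose use had 10 of 15 genes higher in PTS3 and 3 in MTAL (10 and 2 after rescaling). Pck1, the entry enzyme of gluconeogenesis, was at 1802, 1122 and 661 TPM in the PTS3 mice and at 0.255, 0.755 and 0.105 TPM in the MTAL mice (difference 9.73, SE 0.55). Ketohexokinase (Khk) was at 1313, 1287 and 1406 against 49.7, 31.2 and 43.9 TPM. G6pc, the last step to free glucose, was higher in MTAL on TPM (13.8, 14.8 and 21.4 against 74.1, 26.2 and 58.7 TPM, difference -1.52, SE 0.48), a call lost after rescaling (-0.92) and without MTAL mouse 1 (-1.22) or mouse 3 (-1.39).

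**Figure D3:**
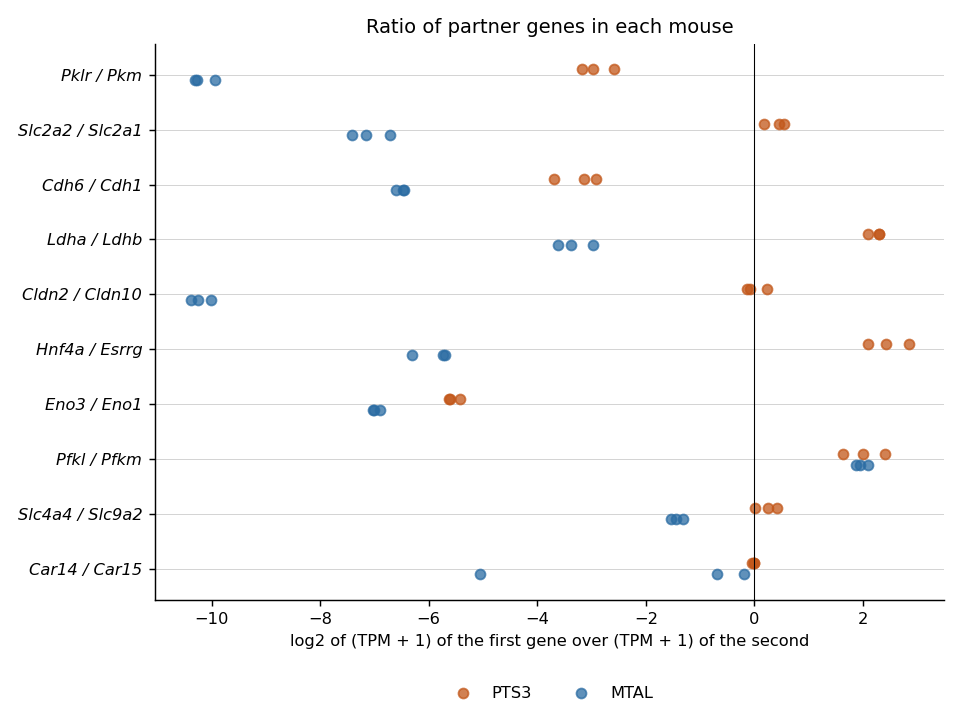
Log2 ratio of (TPM + 1) between partner genes in each mouse, with 1 point per mouse and all 10 pairs shown. The 2 segments stand on opposite sides of 0 for Ldha/Ldhb, Slc2a2/Slc2a1, Slc4a4/Slc9a2 and Hnf4a/Esrrg; both members of the last pair (Car14/Car15) are near 0 except Car15 in MTAL mouse 2.

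Of 27 citric acid cycle and pyruvate dehydrogenase genes, 17 were higher in MTAL and 1, the kinase Pdk3 (158, 122 and 131 against 25.3, 32.2 and 29.7 TPM), in PTS3; the list's median difference was -1.27 against -0.62 for all expressed genes, and 1 passed toward PTS3 and 10 toward MTAL after median ratio rescaling (median -0.64), and 1 and 17 after quantile normalization (median -1.15). Mitochondrial isocitrate dehydrogenase Idh2 was at 253, 219 and 203 against 2715, 2703 and 2656 TPM (difference -3.58, SE 0.15; -2.95 after rescaling). The pyruvate dehydrogenase kinases Pdk1 (3.5, 0.85 and 0.68 against 60.9, 42.8 and 46.5 TPM), Pdk2 (98.9, 55.2 and 74.4 against 395, 440.1 and 338 TPM) and Pdk4 (1.25, 4.21 and 1.67 against 55.6, 22.98 and 21.9 TPM), which switch pyruvate dehydrogenase off, were all on the MTAL side. Of 74 nuclear genes of the respiratory chain and ATP synthase, 30 were higher in MTAL and 0 in PTS3 (median -0.95), a share close to the 33.6% of expressed genes; 6 passed after median ratio rescaling (median -0.33), a smaller share than the 21.2% of expressed genes. After quantile normalization 23 passed (median -0.84), a larger share than the 18.8% of expressed genes, so the list's place against the background turned with the rescaling.

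The 6 that also passed after the median ratio were Cox7a1, Cox7a2l, Atp5g1, Cox7b, Atp5a1 and Uqcrh. The first of these stood apart: Cox7a1, the heart and muscle form of a cytochrome oxidase subunit, was at 4.56, 11.7 and 4.71 TPM in PTS3 and 447, 328 and 503 TPM in MTAL (difference -6.10, SE 0.37, adjusted p = 2.3e-18; -5.66 after rescaling). The ATP synthase beta subunit Atp5b was among the most abundant, at 3942, 3268 and 3997 against 10973, 11613 and 10491 TPM (difference -1.57, SE 0.17; -0.94 after rescaling, not past the threshold). Of the 13 protein genes of the mitochondrial genome, 7 were tested and 0 passed on TPM by limma (3 had an unadjusted p under 0.05), with a median of 0.73, and 5 (mt-Nd1, mt-Nd2, mt-Nd4, mt-Nd5 and mt-Nd6) passed toward PTS3 after median ratio rescaling but 0 after quantile normalization. Leaving out 1 mouse also moved calls on TPM: without MTAL mouse 3, mt-Nd1 (1.005) and mt-Nd2 (1.10) passed toward PTS3, and without PTS3 mouse 1, mt-Nd2 did (1.04). mt-Nd1 was at 28857, 39712 and 30579 TPM in PTS3 and 19686, 13407 and 22755 TPM in MTAL. The other 6, among them mt-Co2 and mt-Atp6, were listed at 0 in every library of the series, so a 0 in this table need not mean an absent transcript.

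**Figure D4:**
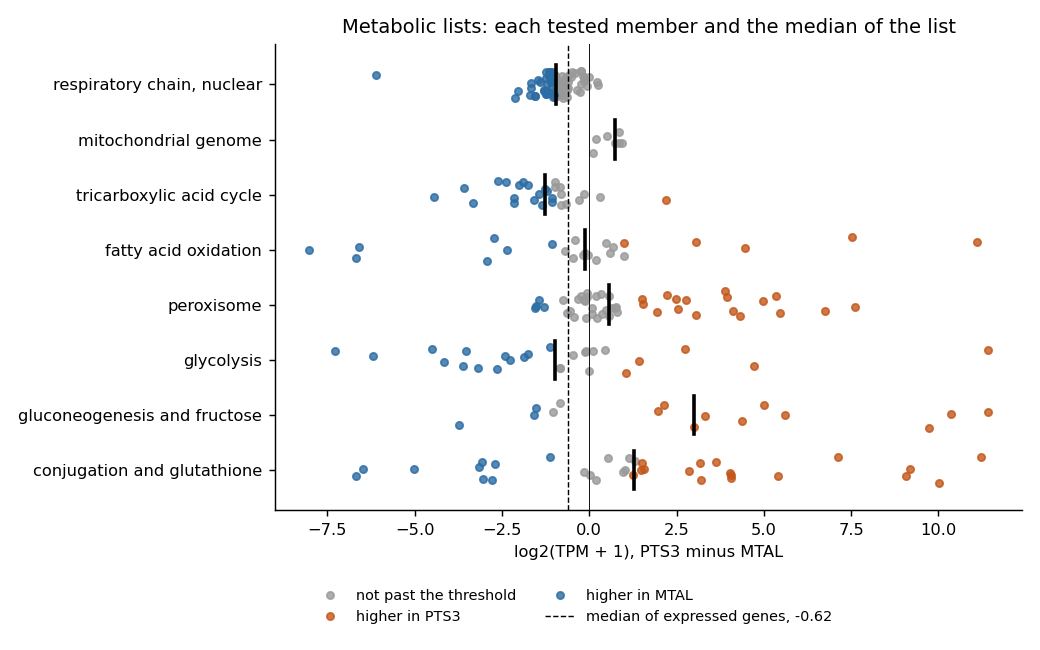
Difference in log2(TPM + 1), PTS3 minus MTAL, of each tested member of 8 metabolic lists, with the list's median as a black bar and the median of expressed genes (-0.62) as a dashed line. The respiratory chain is a narrow cloud around -0.95 with Cox7a1 at -6.10, whereas conjugation and glutathione members reach from -6.68 (Gstm2) to 11.23 (Keg1).

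Energy buffering was divided as well. The mitochondrial creatine kinase Ckmt1 was at 1.59, 0 and 0 against 303, 368 and 267 TPM (difference -7.93, SE 0.24), next to Ckb above. Ak1, a cytosolic adenylate kinase, was listed at 0 in PTS3 and at 206, 225 and 252 TPM in MTAL, while the mitochondrial matrix form Ak4 was at 120.3, 116 and 69.97 TPM in PTS3 and at most 0.225 TPM in MTAL. Gamt, the second enzyme of creatine synthesis, was at 75.8, 93.3 and 75.8 against 1.05, 1.27 and 1.92 TPM.

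Of 23 fatty acid oxidation genes, 5 were higher in PTS3 and 7 in MTAL (9 and 6 after rescaling). The MTAL count is near the 33.6% of expressed genes, and the PTS3 count stands beside 12.6%. Acadm, the medium-chain acyl-CoA dehydrogenase, was at 3761, 3077 and 3868 TPM in PTS3 and 491, 432 and 373 TPM in MTAL (difference 3.04, SE 0.19), and the uptake receptor Cd36 at 499.5, 362 and 457 against 16.1, 30.6 and 14.3 TPM. Higher in MTAL were the long-chain acyl-CoA synthetase Acsl1 at 1.32, 3.33 and 3.43 against 318, 331 and 307 TPM, the carnitine palmitoyltransferase Cpt1a at 56.6, 38.2 and 43.1 against 347, 341 and 231 TPM and the trifunctional subunits Hadha (41.3, 28.2 and 23.3 against 166, 181 and 127 TPM) and Hadhb (46.8, 41.9 and 41.4 against 363, 383 and 279 TPM). Among those higher in MTAL, the thiolase Acaa2 had the largest difference, at 1.68, 2.6 and 1.66 against 789.8, 574 and 523 TPM (difference -8.04, SE 0.24, adjusted p = 1.3e-29). Etfa and Etfb, which pass electrons from all these dehydrogenases, did not pass the threshold (-0.12, SE 0.17, and 0.18, SE 0.20).

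Peroxisomal genes were higher in PTS3 in 17 of 45 and in MTAL in 4 (23 and 1 after rescaling), with a median of 0.55 against -0.62. Catalase (Cat) was at 782, 615 and 606 against 131, 114 and 108 TPM and the bifunctional enzyme Ehhadh at 765, 636 and 617 against 21.7, 19.04 and 20.5 TPM. The enoyl-CoA reductase Pecr was at 1359, 1185 and 1139 against 12.8, 8.28 and 10.5 TPM (difference 6.75, SE 0.29). Pex11a, which drives peroxisome division, was at 96.2, 70.2 and 86.5 against 34.6, 26.4 and 24.5 TPM and was the 1 Pex gene of 13 called on TPM. The other 12 ranged from -0.65 (Pex6) to 0.79 (Pex3) on TPM, and Pex3, Pex14 and Pex16 passed after rescaling at 1.42, 1.24 and 1.11; without PTS3 mouse 2, Pex3 also passed on TPM (1.02). The ketone-using enzyme Oxct1 did not pass the threshold (-0.05, SE 0.19); of 6 ketone genes, Bdh2 (759.6, 669 and 692 against 0.485, 0.615 and 0.33 TPM) and Acat1 were higher in PTS3, and 4 were after rescaling. In ammonia metabolism the glutamine synthetase Glul was at 265, 254 and 264 TPM in PTS3 and 0.71, 1.38 and 1.06 TPM in MTAL (difference 7.06, SE 0.42), while ornithine aminotransferase Oat was at 30.2, 13.3 and 11.2 against 467, 494 and 358 TPM.

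Most detoxification genes that passed were higher in PTS3. Of 23 cytochrome P450, reductase and flavin monooxygenase genes, 16 were higher in PTS3 and 1 (Cyp20a1) in MTAL. Cyp7b1, an oxysterol hydroxylase, was at 1257, 816 and 1132 against 0.050, 0 and 0.020 TPM, the epoxygenase Cyp2j5 at 959, 698 and 852 against 0, 0.335 and 0.010 TPM and the fatty acid hydroxylase Cyp4a10 at 469, 374 and 414 TPM against at most 0.010 TPM. Of 34 conjugation and glutathione genes, 17 were higher in PTS3 and 9 in MTAL (22 and 8 after rescaling). Glutathione synthesis was on the PTS3 side at each step: Gclc was at 489, 477 and 369 against 51.3, 51.8 and 40.4 TPM, Gclm at 997, 932 and 918 against 56.2, 64.3 and 50.7 TPM and Gss at 1608, 1384 and 1565 against 90.8, 88.5 and 89 TPM, with differences of 3.19, 4.04 and 4.07 (SE 0.30, 0.13 and 0.15). Its breakdown enzyme Ggt1 was at 1650.2, 1225 and 1525 against 50.9, 69.8 and 11.3 TPM, and the secreted peroxidase Gpx3 at 2434, 2519.5 and 2827 TPM in PTS3. Transferases were divided: Gstm1 (5506, 5737 and 6138 against 528, 294 and 275 TPM) and Gstt2 (1122, 1128 and 1079.5 against 169, 131 and 156 TPM) were higher in PTS3, and Gstm2 (0.25, 1.2 and 2.41 against 249, 196 and 155 TPM), Gsta4 (1.09, 1.48 and 0.625 against 72.6, 61.8 and 60.5 TPM) and Mgst1 (7.84, 1.42 and 13.8 against 565, 540.1 and 452 TPM) in MTAL. Many of these genes have near-identical relatives, so their individual levels are uncertain.

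Of 49 transcription factors, 10 were higher in PTS3 and 18 in MTAL (15 and 16 after rescaling). Of expressed genes 12.6% and 33.6% were. Among the 49 factors 41 were expressed genes, with a median of -0.85 against -0.62 for all expressed genes. The proximal nuclear receptor Hnf4a was at 129.9, 105 and 105 TPM in PTS3 and 0, 0.11 and 0 TPM in MTAL (difference 6.78, SE 0.31, adjusted p = 1.1e-22). Cebpb (145, 109 and 116 against 9.88, 6.67 and 6.23 TPM) and Tfec (36.5, 23.7 and 23.7 against 0.005, 0.065 and 0.025 TPM) were other PTS3 factors. On the MTAL side the coactivator of mitochondrial biogenesis Ppargc1a was at 2.96, 1.16 and 0.96 against 279, 301 and 218 TPM (difference -6.69, SE 0.22, adjusted p = 4.6e-28). Its partner receptors differed in size: Esrrb was listed at 0 in PTS3 and at 19.1, 22.6 and 16.5 TPM in MTAL, Esrra was at 32.2, 27.1 and 28.96 against 79.8, 123 and 93.1 TPM, and Esrrg at 23.4, 23.7 and 13.9 against 51.1, 57.9 and 77.6 TPM (-1.58; -0.98 after rescaling, not past the threshold). Tfap2b (0, 0.62 and 0 against 93.97, 91.3 and 75.2 TPM), Mecom (0, 0.11 and 1.21 against 84.05, 76.1 and 61.1 TPM), Sim2 (2.105, 0.31 and 0.95 against 52.1, 72.5 and 50.7 TPM) and Ehf (0.005, 0.38 and 0 against 23.02, 85.95 and 36.6 TPM) were further MTAL factors. Pax8 was shared (difference 0.16, SE 0.23).

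Binding sites of HNF4 and of the oestrogen-related receptors were looked for in promoters from RefSeq (build GRCm38.p6), 300 bases from 250 before to 50 after a gene's start, on both strands. The letters CAAAGTCCA, an HNF4 site, stood in 1.28% of 1566 promoters of genes higher in PTS3, in 0.267% of 4500 promoters of genes higher in MTAL, in 0.427% of 12401 promoters of expressed genes and in 0.475% of all 32851 promoters. TCAAGGTCA, a site of oestrogen-related receptors, stood in 0.192%, 0.289%, 0.29% and 0.423%. A further motif that was searched for, not named here, stood in 1.15%, 0.622%, 0.5% and 0.801%, in the same order. Promoters were found for 4644 of the called genes, and a match of letters is a description of the sequence, not of binding. The following show the 150 bases before the start of 2 genes of the lists above, higher in PTS3 and chosen after the letters were found, with the HNF4 letters in capitals. They are the cystine carrier subunit Slc3a1 (chr17:85028197-85028346, plus strand) and the brush border trehalase Treh (chr9:44673083-44673232, plus strand).
Slc3a1: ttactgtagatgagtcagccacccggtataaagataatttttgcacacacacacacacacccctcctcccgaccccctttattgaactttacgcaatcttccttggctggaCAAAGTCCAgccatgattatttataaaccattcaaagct
Treh: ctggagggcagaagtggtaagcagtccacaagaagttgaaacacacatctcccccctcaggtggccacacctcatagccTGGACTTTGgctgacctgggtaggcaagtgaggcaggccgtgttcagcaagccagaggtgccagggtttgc
The letters begin 39 and 71 bases before the start, in that order, and lie on the opposite strand in Treh. Treh was at 117, 94.2 and 101 TPM in PTS3 and listed at 0 in MTAL.

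Of 42 hormone and nucleotide receptors tested, 8 were higher in PTS3 and 11 in MTAL (10 and 9 after rescaling). Of expressed genes, 12.6% and 33.6% were called in these directions. In MTAL the vasopressin V2 receptor Avpr2 was at 103, 139 and 169 TPM and listed at 0 in all PTS3 libraries (adjusted p = 2.3e-22), the glucagon receptor Gcgr was at 7.72, 8.99 and 6.18 against 338, 295 and 232 TPM (difference -5.11, SE 0.25), and the neuregulin receptor Erbb4 at 34.2, 27.97 and 23.1 TPM against a listed 0. In PTS3 the growth hormone receptor Ghr was at 1963, 1895 and 1933 against 52.3, 53.98 and 37.98 TPM (difference 5.31, SE 0.48) and the angiotensin receptor Agtr1a at 6, 8.85 and 8.84 against 0.29, 1.34 and 0.070 TPM. Purine receptors followed no single side, with P2ry2 at 6.43, 6.26 and 3.27 against 45.6, 75.3 and 41.4 TPM and Adora2b at 2.59, 2.56 and 5.43 against 0.165, 0.865 and 0.145 TPM. Of 13 tested androgen-linked or male-biased proximal genes, 10 were higher in PTS3 and 0 in MTAL (11 and 0 after rescaling), with Kap, Cyp7b1 and the ferritin receptor Timd2 (66.3, 51.2 and 68.6 against 0, 0.015 and 0 TPM) among them; all mice were male. Iron genes were also divided: the exporter ferroportin (Slc40a1) was at 77.4, 46.8 and 37.01 TPM in MTAL and listed at 0 in PTS3, and the importer Slc39a14 was at 218, 161 and 174 against 15.4, 19.1 and 15.5 TPM. Organic osmolyte carriers did the same, with the inositol carrier Slc5a3 at 1.21, 0.99 and 0.47 against 135, 192 and 118 TPM and the taurine carrier Slc6a6 at 229.8, 116 and 182 against 1.31, 3.9 and 5.65 TPM.

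Of 19 oxygen-sensing genes, 3 were higher in PTS3 and 7 in MTAL (5 and 4 after rescaling), beside 12.6% and 33.6% of expressed genes. Among the 19, 17 were expressed genes, with a median of -0.45 against -0.62 for all expressed genes. Hif1a was at 11.4, 7.57 and 9.94 against 36.05, 55.5 and 29.6 TPM (difference -1.93, SE 0.22), and Epas1, which encodes HIF-2 alpha, was low in both (difference 0.36, SE 0.23, not past the threshold). Vegfa, the growth factor for capillaries, was at 45.1, 47.01 and 38.5 against 133, 155 and 162 TPM. Car9, a membrane carbonic anhydrase, was a PTS3 gene (76.4, 53.9 and 33.2 against 0.25, 0 and 0.090 TPM), and Hmox1 was at 31.6, 26.8 and 24.8 against 1.51, 1.73 and 3.4 TPM. Of 15 tubular injury genes, 5 were higher in PTS3 and 4 in MTAL, on TPM and after rescaling. The proximal marker Havcr1 was at 7.71, 2.03 and 6.05 TPM in PTS3 and listed at 0 in MTAL, and the distal marker Lcn2 was at 18.9, 37.9 and 13.2 TPM in MTAL and listed at 0 in PTS3. Osteopontin (Spp1) was at 9.29, 6.24 and 20.02 against 3632, 5452 and 3971 TPM (difference -8.82, SE 0.56) and clusterin (Clu) at 57.1, 39.95 and 78.3 against 4.78, 7.36 and 3.8 TPM.

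Of 23 tested early-response and heat shock genes, 8 were higher in MTAL and 0 in PTS3 (1 and 4 after rescaling). Higher in MTAL were 33.6% of expressed genes and 13.5% of all genes tested. Only 15 of the 23 were expressed genes, with a median of -1.89 against -0.62 for all expressed genes. Klf6 was at 1.81, 6.28 and 3.67 against 46.04, 35.5 and 34.98 TPM (difference -3.36, SE 0.30) and Hspb1, a small heat shock protein, at 1.53, 4.79 and 1.85 against 10.8, 16.1 and 13.4 TPM. Fos was uneven, at 0, 0 and 0.025 TPM in PTS3 and 0.485, 0.465 and 19.5 TPM in MTAL, and it did not pass the threshold. The high mean of MTAL mouse 3 came almost wholly from 1 of its 2 pieces, at 38.5 TPM. Of the 10 leukocyte genes above, 7 were higher in the same MTAL mice and 1 was higher in PTS3, and their part in this list was not tested.

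Genes close in both segments were counted among 5463 with a mean of at least 10 TPM in each. Of these, 2494 (45.7%) had a 95% confidence interval of the difference inside -1 to 1. Among the 10 most abundant of them were the nuclear RNA Malat1 (21775, 27417 and 17601 against 21898, 16807 and 22921 TPM, difference 0.10, SE 0.25), the peroxiredoxin Prdx5 (-0.08, SE 0.18), the ferritin light chain Ftl1 (0.18, SE 0.17) and the matrix protein Igfbp7 (-0.51, SE 0.12). The other 6 were respiratory chain or ATP synthase genes: Ndufb8 (-0.06), Ndufa1 (0.25), Ndufa4 (-0.14), Uqcrq (-0.34), Cox6a1 (-0.69) and Atp5j (-0.75), with SE of 0.09 to 0.18. Rescaling moved these abundant genes upward, as for Ndufa1 to 0.89 and Malat1 to 0.73, and 2963 genes met the same interval then.

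The same contrast was made in the cortex, between the cortical straight tubule PTS2 and the cortical thick limb CTAL (5 mouse numbers each), to see which differences varied between outer medulla and cortex. Across the 13228 expressed genes the PTS3 minus MTAL and PTS2 minus CTAL differences had a Pearson r of 0.921; genes are not independent replicates, and no p is given. Of the 6285 genes called in the outer medulla, 4451 were called in the same direction in the cortex (70.8% of the outer medullary and 73.4% of the 6067 cortical calls) and 21 in the opposite direction. The difference between the contrasts itself passed adjusted p under 0.05 and a size of 1 for 1392 genes (4.12%), with 596 (1.76%) having a signed PTS3 minus MTAL value above, and 796 (2.36%) below, the signed PTS2 minus CTAL value. A higher signed value can be a smaller gap between the segments.

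The genes with the strongest regional difference took several forms across the 4 segments. Pth1r was shared by both cortical segments (685 to 1178 TPM in PTS2 and 486 to 723 TPM in CTAL, with medians of 1007 and 624 TPM) and by PTS3, but was at 4.15, 9.44 and 2.06 TPM in MTAL; its difference was 6.72 in the outer medulla and 0.72 in the cortex. Car4 had the opposite form: it was at 355 to 598 TPM in PTS2 (median 491 TPM), 371 to 452 TPM in CTAL (median 417 TPM) and 351, 462 and 384 TPM in MTAL, and at 0.485, 0 and 0 TPM in PTS3. Slc22a6 (683 to 1183 TPM in PTS2, median 1032 TPM), the xenobiotic enzyme Cyp2e1 (710 to 1202 TPM, median 1073 TPM) and the dicarboxylate carrier Slc13a3 (174 to 284 TPM, median 224 TPM) were abundant in the cortical straight tubule and under 2 TPM in every PTS3 and MTAL mouse. G6pc was at 155 to 321 TPM in PTS2 (median 174 TPM) and 2.72 to 3.45 TPM in CTAL (median 3.02 TPM), so its difference was 5.71 in the cortex and -1.52 in the outer medulla. Car15 (1388 to 2812 TPM in CTAL, median 2112 TPM), the Wnt antagonist Sfrp1 (217 to 375 TPM, median 307 TPM) and the phosphatase Dusp9 (35.4 to 109.6 TPM, median 76.9 TPM) were cortical thick limb genes. In MTAL mice, Car15 was at 0.6, 34.7 and 0.145 TPM. The high mean of mouse 2 came almost wholly from 1 of its 2 pieces, at 67.7 TPM. The outer medullary difference of Car15 was -0.42 without that mouse. Kap was at 27410.3 to 47510.2 TPM in PTS2 (median 35546 TPM) and 61.1 to 379 TPM in CTAL (median 213 TPM), against the values of PTS3 and MTAL above; the larger outer medullary difference came with more Kap in PTS3 and less in MTAL.

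**Figure D5:**
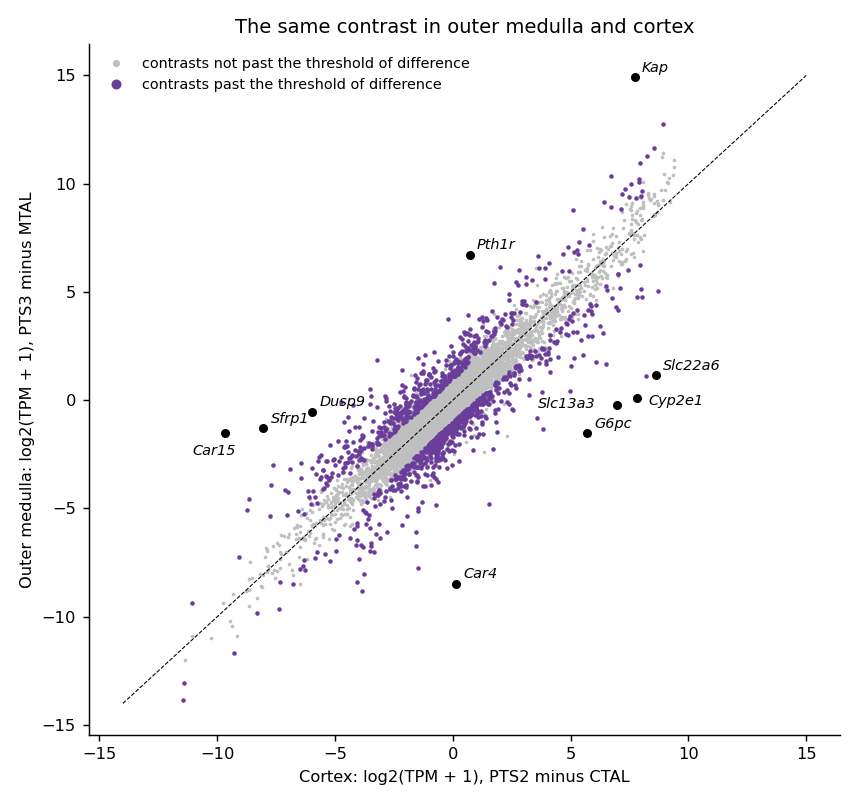
PTS3 minus MTAL (y axis) against PTS2 minus CTAL (x axis) in log2(TPM + 1), 1 point per expressed gene, with purple for genes whose contrasts differ past the threshold and black for the 10 named genes. Most points follow the dashed line of equality (Pearson r = 0.921), and Pth1r, Kap and Car4 lie far from it.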

How the data were processed

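Microdissected tubule pieces were sequenced one library at a time, and the deposited table holds TPM made by the authors, with STAR 2.5.4a and RSEM 1.3.0 named in the submitters' processing notes; the genome build is not given in the sources used here. RSEM divides shared reads among gene copies, so levels of close relatives are uncertain. The 2 pieces of a mouse were averaged as log2(TPM + 1) and printed as the mean TPM. Genes at 1 TPM in at least 3 of the 53 combinations of segment and mouse number (33793 of 54532) were fitted with limma 3.58.1 (R 4.3.3, trended variance, 15 groups, 38 residual degrees of freedom), with Benjamini-Hochberg adjustment and a threshold of 0.05 and a log2 difference of 1. Fits over all groups share 1 estimate of the spread. On simulated data the fit recovered 90% of genes changed by 1.5 on the log2 scale and 100% of those changed by 2, with 4 other genes called. There, 40 genes were changed at each size, all well above 0 in MTAL. Every other gene was set equal in PTS3 and MTAL, and the noise was normal. The real data held many more differing genes and many genes near 0, so these rates need not hold for them. Authors' mean columns were not used, 1 PTS2 column matched no sample title exactly, and 3 single-cell samples were not analysed here. Where nothing says that replicates came from separate experiments, p-values measure only the spread between these samples.

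The members and gene lists were chosen with earlier results of these data known. Genes named are members of the lists, the 12 largest differences in each direction (where the higher segment averaged 10 TPM or more and its mice did not overlap the others), the 10 most abundant close genes, and the 5 genes in each direction whose difference varied most between outer medulla and cortex; pseudogenes, ribosomal protein genes and unnamed gene models were passed over. Alternatives tried were the pseudocount, filters on low values, 2 rescalings, how pieces were averaged, the prior variance, a fit of these groups alone, a replicate block and leaving out each mouse. Some genes that meet these rules are not reported here.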

Additional observations from a re-analysis of the deposited data

Results flagged for a closer look

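The 10 genes listed here were selected because the PTS3 minus MTAL difference departed from the PTS2 minus CTAL difference by limma's interaction test, on the log2(TPM + 1) scale. The signed PTS3 minus MTAL value was above the signed PTS2 minus CTAL value by 8.15 for Car15, 7.19 for Kap, 6.75 for Sfrp1, 6.00 for Pth1r and 5.45 for Dusp9. For Kap and Pth1r this was a wider gap toward the proximal segment in the outer medulla, and for Car15, Sfrp1 and Dusp9 a narrower gap toward the thick limb. The signed value was below that of the cortex for Car4 (-8.60), Cyp2e1 (-7.72), Slc22a6 (-7.45), G6pc (-7.23) and Slc13a3 (-7.17). Car4 had a wider gap in the outer medulla, toward MTAL, and the other 4 a narrower one. The outer medullary difference was in the opposite direction for G6pc and close to 0 for Cyp2e1 (0.11) and Slc13a3 (-0.20). All 10 kept their call under every alternative run for this contrast. Within the groups of 5 mice in the cortex, no mouse stood apart by Dixon's test in 20 tests of these genes, and the groups of 3 in the outer medulla were not tested.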

How the results depend on the processing

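A pseudocount of 0.1 gave 8332 calls between PTS3 and MTAL, 6362 of them higher in MTAL, and one of 5 gave 3769 calls, 2572 of them higher in MTAL, and 866 genes differing between outer medulla and cortex, 379 with a higher and 487 with a lower signed difference in the outer medulla; a larger pseudocount shrinks the differences of low genes. Median ratio rescaling gave 2696 genes higher in PTS3 and 2960 higher in MTAL, and 4639 calls (73.8% of those on TPM) were shared. Quantile normalization gave 2750 higher in MTAL. Leaving out 1 mouse at a time gave 6112 to 6411 calls (1693 to 1753 higher in PTS3, 4359 to 4718 higher in MTAL), 2216 to 2411 close genes, and 1206 to 1436 regional calls (507 to 603 higher, 673 to 876 lower). The fit of PTS3 and MTAL alone gave 6208 calls, and with a replicate block 6222; equal mouse numbers did not deviate together (correlations of -0.02, -0.109 and -0.03), so they were not treated as pairs. Car15 lost its call without MTAL mouse 2 (-0.42), and also without any 1 of the PTS3 mice, where its difference stayed at -1.54 to -1.52. Its call was also lost with no filter on low values and with a robust prior variance (-1.52 in both), and with a pseudocount of 5 (-0.78). Sfrp1 lost its call without MTAL mouse 2 (-0.84) and with a pseudocount of 5 (-0.41). With 3 mice a group and TPM without depth, small differences of low genes were not resolved.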
